A study of Homo sapiens with 23 samples.

Results

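A549 cells, an established line from a human lung adenocarcinoma that the labels call lung carcinoma epithelial cells, were depleted of THUMPD3 with the short hairpin RNA shD3#1 and compared with cells labelled sh1Control. The comparison uses 6 of the 23 RNA-seq libraries of the series, namely 3 of shD3#1 (genotype label THUMPD3 knockdown) and 3 of sh1Control (genotype label WT), chosen by those labels in the first count table and harvested on day 6. The hairpin was carried by a doxycycline-inducible pLKO-Tet-On lentivirus, and transduced A549 cells, grown in DMEM with 10% foetal bovine serum, were selected with puromycin, but whether they were then cloned is not given in the sources used here. The study's methods set treated samples against untreated ones and name doxycycline as the inducer, so an effect of the agent and one of the loss of THUMPD3 cannot be told apart. RNA was depleted of ribosomal RNA before directional library preparation, so RNA with and without a poly(A) tail was counted. The other libraries, used only to show where shD3#1 differed, are 3 and 3 deeper libraries of the same groups, 3 of a second hairpin (shD3#4) with 3 of sh4Control, and 3 of an siRNA (siTHUMPD3) with 2 of siControl. The labels name the replicates as biological, without saying whether they came from separate transductions, so p-values measure the spread between these libraries.

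THUMPD3 is a methyltransferase that places N2-methylguanosine in the acceptor stem of certain cytoplasmic tRNAs. Like the related enzymes THUMPD2 and TRMT11, it works as a complex with TRMT112, a small activator that it shares with enzymes acting on ribosomal RNA, tRNA and translation release factors. The modification is thought to keep tRNAs correctly folded for translation. A549 cells mix epithelial features, such as keratins, with mesenchymal ones, such as vimentin, and they adhere to a matrix that they partly make themselves.

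The 6 libraries held 9854294 to 20234810 counted reads, the smallest being shD3#1 replicate 3. Mitochondrially encoded RNA took 31.4% to 33.6% of counts in sh1Control and 29.0% to 29.6% in shD3#1, most of it the ribosomal RNA MT-RNR2. On a principal component analysis of the tested genes, the first component (78.9% of variance) separated the groups, and the second (9.46%) set shD3#1 replicate 3 at 31.9 against -16.6 and -18.0 for the other shD3#1 libraries. That library also held 0.112% of its counts in small nucleolar RNA genes, against 0.0290% to 0.0529% in the other 5, and counts that shift without it are given both ways. Without it, 2430 genes were called higher and 2472 lower. The epithelial keratins KRT8 and KRT18 and the adhesion molecule EPCAM were present in all 6 libraries. Of 10 fibroblast, 10 leukocyte and 10 endothelial markers, DCN, CD3E, TYROBP, MS4A1 and EMCN had no count in any library, and only 5, 2 and 1 of each list were abundant enough to test. Others were present in every library, among them COL1A1 (64 to 158 counts), LUM (29 to 59), THY1 (14 to 37), CD14 (22 to 92) and ESAM (66 to 153). CD79A had 2, 3 and 1 counts in sh1Control and 27, 18 and 10 in shD3#1. In the leukocyte list 1 marker was called higher and 1 lower.

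THUMPD3 itself, on chromosome 3 (GRCh38, chr3:9362971-9386791, plus strand), was measured at 61.8, 59.6 and 62.5 counts per 1000000 reads (cpm, after TMM scaling) in sh1Control and at 30.9, 30.5 and 32.9 cpm in shD3#1. All 3 depleted libraries were below all 3 controls. The RNA came from whole cultures, in which fewer expressing cells and less RNA per cell cannot be told apart. The level left was 51.3% of control (95% confidence interval 46.7% to 56.0%), a log2 fold change of -0.97 ± 0.07 (SE, n = 3 and 3, edgeR adjusted p = 6.42e-09). An exact two-sided permutation test on this gene alone gave p = 0.1, the smallest value that the 20 ways of dividing 6 libraries allow. THUMPD3-AS1, a transcript on the opposite strand, differed by -0.17 (adjusted p = 0.0404), under the 1.5-fold limit set for a call. Which strand column was counted is not given in the sources used here, so reads of the gene and of its antisense partner cannot be told apart.

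The partner enzymes moved little. TRMT112 was at 62.1, 56.8 and 68.0 cpm in sh1Control and at 77.0, 74.9 and 93.2 cpm in shD3#1, which did not overlap, but its log2 fold change of 0.38 (adjusted p = 0.00142) was under the limit, and in the deeper libraries its value was -0.29. THUMPD2 (-0.12) and TRMT11 (-0.04, and 0.03 with no scaling beyond library size) were not called. Of the 8 genes for TRMT112 and its partners, all tested, THUMPD3 was the single one called. No member was called higher by edgeR or DESeq2, and 2 were above 0 at an unadjusted p under 0.05.

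Across the 16456 genes that passed the low-count filter, 2389 (14.5%) were called higher and 2396 (14.6%) lower in shD3#1, a call being an edgeR quasi-likelihood test with Benjamini-Hochberg adjusted p below 0.05 and a change of 1.5-fold or more. For 10200 genes (62%) the groups did not overlap. The numbers called in each gene list below are read against the 14.5% and 14.6% of all genes. Large changes were more often rises, with 328 genes higher by at least 4-fold against 156 lower, and 101 against 22 at 10-fold. By class, 1887 of 12925 protein-coding genes were higher and 1933 lower, and for lncRNA genes the numbers were 365 and 364 of 2520.

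**Figure D1:**
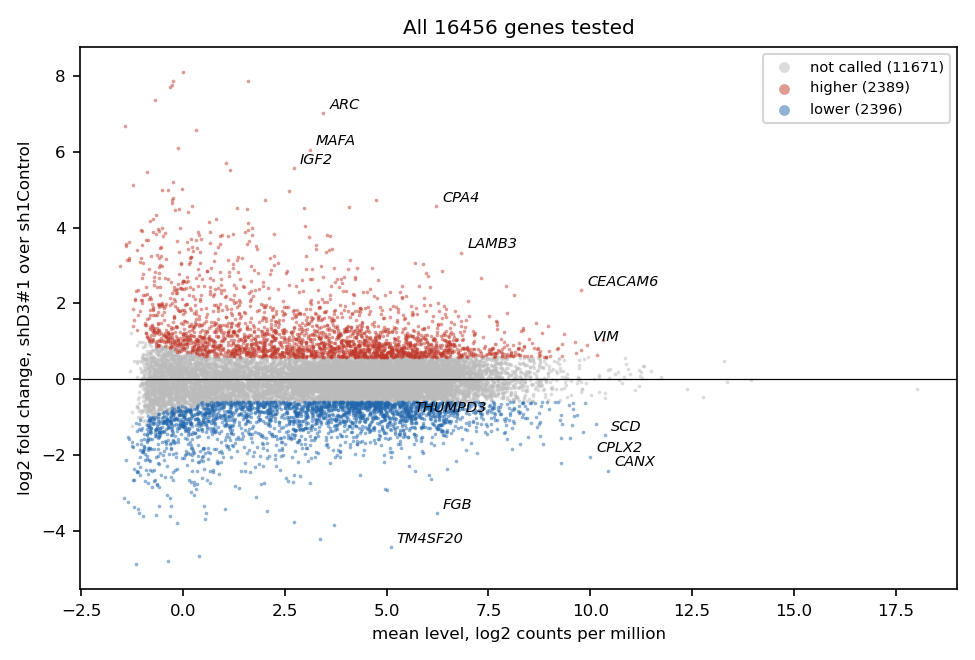
Each point is 1 of the 16456 tested genes, with the average level (log2 cpm) on the horizontal axis and the log2 fold change of shD3#1 over sh1Control on the vertical axis, and called genes are coloured by direction. The 2389 higher and 2396 lower genes lie across most of the range of levels, and the largest rises reach further from 0 than the largest falls.

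The largest rises among protein-coding genes included secreted, surface and signalling proteins. CPA4, a secreted carboxypeptidase, was at 5.97, 5.91 and 5.95 cpm in sh1Control and at 135, 137 and 156 cpm in shD3#1, 23.9-fold higher (log2 4.58 ± 0.09, adjusted p = 1.78e-14). ANXA10, a calcium-dependent phospholipid-binding protein, went from 2.08, 1.97 and 1.71 cpm to 50.9, 46.5 and 56.0 cpm (26.6-fold). Neither gene had a depleted library anywhere near a control. ARC, an immediate early gene best known from neurons, was near the limit of detection in sh1Control (0.156, 0.174 and 0.151 cpm) and at 24.0, 21.02 and 19.8 cpm in shD3#1 (log2 7.02 ± 0.20). MAFA, a transcription factor of pancreatic beta cells, rose from 0.156, 0.232 and 0.353 cpm to 17.1, 17.1 and 16.8 cpm, and IGF2, a growth factor of fetal tissues, from 0.259, 0.232 and 0.302 cpm to 13.1, 13.5 and 12.1 cpm. All 3 genes therefore began from a handful of reads. SEMA7A, a membrane-anchored semaphorin, rose by 4.03 on the log2 scale, TRPM8, a cold-sensing ion channel, by 4.11, and SOCS1, an inhibitor of cytokine signalling, by 4.74. PSG4 (4.51) and ACTBL2 have near-identical relatives, so their values are uncertain. For ACTBL2 the ratio was 327 from 1 count in all sh1Control libraries and 253 in shD3#1 (95% interval 58.2 to 12982, which covers counting error only, as the reads carry no molecular identifiers).

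The largest falls included genes best known from gut, nerve or liver. TM4SF20, a membrane protein of the gut, was at 67.2, 62.8 and 66.1 cpm in sh1Control and at 4.15, 2.29 and 2.75 cpm in shD3#1, 21.3-fold lower (log2 -4.42 ± 0.13). NPTX1, a secreted pentraxin of synapses, fell from 19.6, 19.6 and 19.2 cpm to 1.07, 1.33 and 0.509 cpm. For both genes every shD3#1 library lay far below the lowest control. C3, the central complement component, fell from 55.5, 57.8 and 53.1 cpm to 7.70, 9.05 and 4.68 cpm. SLC23A1, a vitamin C transporter, fell by 3.76, USH1C, a scaffold protein of microvilli, by 3.47, and DDC, which makes dopamine and serotonin, by 3.11 on the log2 scale.

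Among called genes, the widest gaps in cpm were found for CANX, CPLX2 and SCD, which fell, and for CEACAM6 and SQSTM1, which rose. CANX, the calnexin chaperone of the endoplasmic reticulum (chr5:179678628-179731641), was at 2398, 2368 and 2203 cpm in sh1Control and at 447, 438 and 431 cpm in shD3#1, 5.29-fold lower (log2 -2.40 ± 0.06, adjusted p = 9.49e-14). The 3 depleted libraries were close to each other and far from the controls. CPLX2, a complexin of vesicle release on the same chromosome arm (chr5:175796310-175884021), fell from 1629, 1556 and 1739 cpm to 384, 398 and 421 cpm. SQSTM1, the autophagy receptor p62, is a neighbour of CANX (chr5:179806398-179838078) and rose from 817, 814 and 865 cpm to 1669, 1615 and 1818 cpm. CEACAM6, a surface glycoprotein common in adenocarcinomas, rose from 276, 293 and 288 cpm to 1398, 1423 and 1563 cpm (5.11-fold). AKR1C2, an aldo-keto reductase whose paralogs share much of its sequence, fell by 1.17, CYP24A1, which degrades vitamin D, by 1.40, and TGFBI, a matrix protein induced by TGF-beta, by 1.20 on the log2 scale. ITGB1 (0.04, adjusted p = 0.577), GAPDH (0.08) and MT-CO1 (-0.08), all abundant, were not called.

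**Figure D2:**
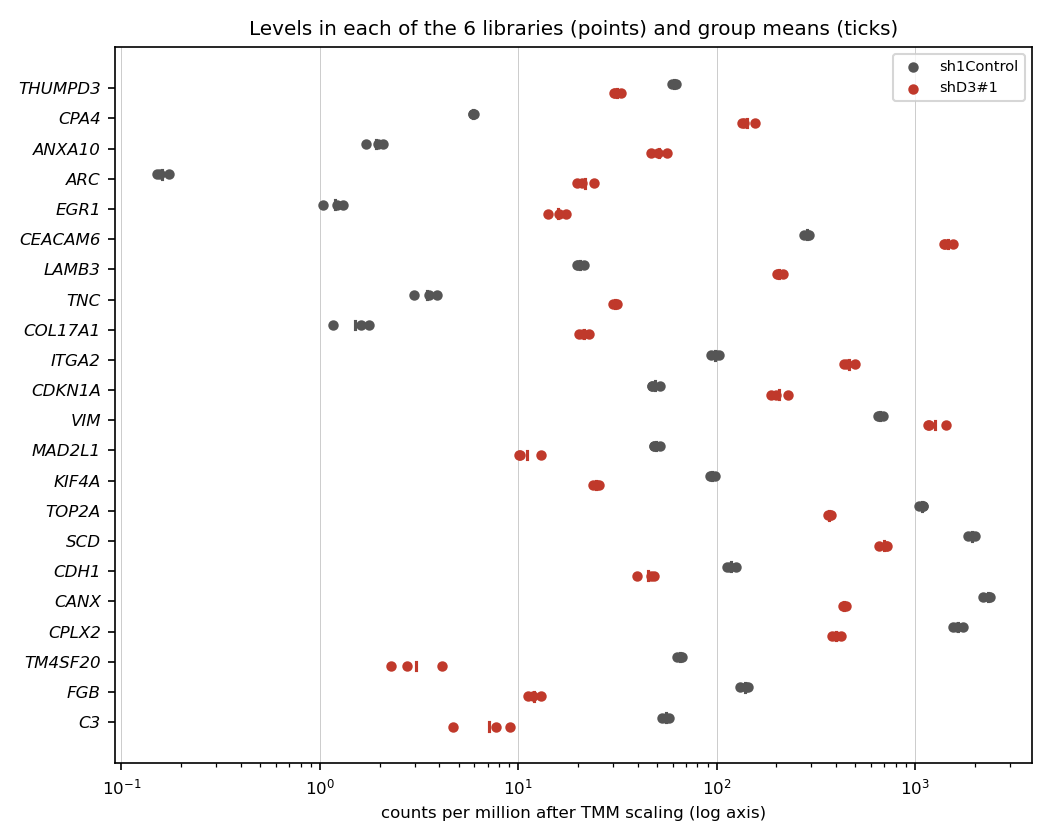
Level in each library of 22 genes described in the text, with 1 point per library, ticks at the group means, genes in rows and cpm after TMM scaling on a log axis. In each row the 3 points of a group lie apart from the other group, with CANX at 431 to 447 cpm in shD3#1 against 2203 to 2398 cpm. Within shD3#1 the points spread more for C3 (4.68 to 9.05 cpm) and TM4SF20 (2.29 to 4.15 cpm).

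Matrix genes rose more often than they fell, with exceptions in each class. Of 34 collagen genes listed, 24 were tested, 15 were higher and 4 lower (median log2 fold change 0.73, against -0.01 over all genes tested). COL17A1, a transmembrane collagen of hemidesmosomes, was at 1.61, 1.16 and 1.76 cpm in sh1Control and at 20.4, 22.8 and 21.3 cpm in shD3#1. COL5A2, a fibrillar collagen of much higher level, rose from 401, 421 and 381 cpm to 906, 909 and 916 cpm. The groups were far apart for both. COL14A1 (3.84) and COL3A1 (3.45) also rose, while COL5A3 (-2.66) and COL27A1 (-0.65) fell. COL3A1 is also on the fibroblast marker list, whose summed level was 8.47 to 10.5 cpm in sh1Control and 18.1 to 20.3 cpm in shD3#1. Of that list, DCN was at 0 throughout and LUM had 29 to 59 counts in each library. The part of other cells in the collagen values was not tested.

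Laminins and the hemidesmosome, the anchoring complex of epithelial cells, had 12 higher and 1 lower of 20 tested (21 listed, median 0.80). LAMB3, a laminin beta chain of that complex, was at 19.9, 21.5 and 20.01 cpm in sh1Control and at 205, 215 and 201 cpm in shD3#1 (log2 3.34 ± 0.07, adjusted p = 2.41e-14). COL17A1, given above, and the integrin subunit ITGB4, which rose from 61.0, 59.6 and 66.5 cpm to 215, 217 and 163 cpm, are its partners in the complex. PLEC, the plectin that links it to keratin filaments, went from 536, 502 and 540 cpm to 1179, 1149 and 816 cpm. For ITGB4 and PLEC, shD3#1 replicate 3 lay below the other 2 libraries of its group. LAMC3, a laminin chain outside this complex, was the one that fell (-0.93).

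Matrix glycoproteins were mixed, with 9 higher and 7 lower of 26 tested (34 listed, median 0.35). TNC, the tenascin of wounds and tumour stroma, rose from 3.89, 3.54 and 2.97 cpm to 30.0, 31.6 and 31.0 cpm. FBN1, the fibrillin of microfibrils, rose from 25.2, 23.0 and 21.1 cpm to 74.5, 76.9 and 73.8 cpm. Fibronectin, FN1, had a smaller separation, at 368, 396 and 379 cpm against 577, 609 and 540 cpm. Its log2 fold change of 0.59 sat just past the 1.5-fold limit and was lost in 7 of the 16 other settings tried, with values down to 0.55. ECM1 (2.07) and SPARC (1.42), a collagen-binding protein, rose, and the elastic fibre protein FBLN5 fell (-2.60). The summed level of the list was 2637 to 2765 cpm in sh1Control and 2272 to 2418 cpm in shD3#1, the reverse of its median, and TGFBI, its most abundant member in sh1Control, averaged 1044 and 455 cpm.

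Among matrix proteases and their inhibitors 15 were higher and 1 lower of 27 tested (35 listed, median 0.61). MMP1, the interstitial collagenase, had 1 count in the 3 control libraries together and 102 in shD3#1, a ratio of 132 (95% interval 23.2 to 5264). MMP10, or stromelysin 2, was at 0.104, 0.290 and 0.101 cpm in sh1Control and at 2.01, 1.49 and 1.63 cpm in shD3#1. Both are genes of a few reads. At higher level, SERPINE2, an inhibitor of serine proteases, rose from 30.9, 29.8 and 30.3 cpm to 127, 129 and 112 cpm. PLAU, the urokinase, rose from 57.4, 57.5 and 55.8 cpm to 133, 135 and 137 cpm, and ADAM9, a membrane-bound sheddase, by 0.69 on the log2 scale. The one member that fell was MMP28 (-1.89).

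Of 24 integrin subunits listed, 21 were tested, 11 were higher and 4 lower (median 0.62). ITGA2, the collagen receptor subunit, was at 99.0, 103 and 93.7 cpm in sh1Control and at 437, 452 and 497 cpm in shD3#1. ITGA11, another collagen-binding subunit, rose from 5.34, 5.33 and 4.84 cpm to 32.2, 32.6 and 31.9 cpm. ITGA1, of the same class, fell (-1.20), as did the leukocyte subunit ITGAL (-1.26), and ITGB1, the common partner of all 3 collagen receptors, is given above as not called. Without shD3#1 replicate 3 the counts of these 5 lists were 15 and 3, 12 and 1, 10 and 7, 15 and 1, and 11 and 3.

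Epithelial and mesenchymal genes were called higher more often than all genes (14.5%) and lower about as often (14.6%). Of 27 epithelial junction and keratin genes tested (32 listed), 11 were higher (40.7%) and 4 lower (14.8%). Of 24 mesenchymal transition genes (26 listed), 11 were higher (45.8%) and 3 lower (12.5%). CDH1, the E-cadherin of epithelial junctions, fell from 117, 126 and 113 cpm to 46.8, 48.5 and 39.7 cpm, while KRT19, a keratin of simple epithelia, rose from 24.6, 23.3 and 25.9 cpm to 94.7, 96.0 and 95.4 cpm. CLDN4, a tight junction claudin, rose (2.79), and ESRP1, an epithelial splicing regulator, fell (-1.23). VIM, the vimentin filament, was at 653, 656 and 693 cpm and then at 1170, 1165 and 1428 cpm. SNAI2, a repressor of E-cadherin, was at 0.726, 0.812 and 0.655 cpm and then at 4.22, 4.63 and 3.16 cpm, and CDH2, the N-cadherin, rose by 0.90. TGFBR1 (-1.28) and LOXL2 (-0.80) fell.

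Genes of the AP-1 and immediate early class, which growth factors and stress switch on within minutes, had 15 higher and 4 lower of 28 tested (29 listed, median 0.71). EGR1, a zinc finger factor, was at 1.04, 1.22 and 1.31 cpm in sh1Control and at 16.1, 17.5 and 14.1 cpm in shD3#1 (13.4-fold, adjusted p = 2.31e-11). FOSB, an AP-1 subunit, was at 0.623, 0.232 and 0.252 cpm and then at 12.4, 11.7 and 11.1 cpm, and EGR3 had no count in sh1Control and 91 in shD3#1, at least 39.3-fold higher against a floor of 3 counts over the group. These 3 genes, like ARC, were almost silent in the controls. JUN was already present and rose from 22.4, 22.2 and 22.6 cpm to 85.5, 83.7 and 80.1 cpm. FOSL1 (1.80), FOS (0.81), ATF3 (1.97) and DUSP6 (1.91), a phosphatase that limits ERK, rose as well. BATF3 (-1.40) and the nuclear receptor NR4A3 (-0.85) fell, and DUSP4 (0.41) was not called.

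The levels of these early genes differed between the first and the deeper libraries of the same 2 groups, which were counted and normalised separately. EGR1 averaged 822 cpm in the deeper sh1Control libraries (755 to 892) and 966 cpm (865 to 1083) in deeper shD3#1, and FOSB averaged 449 and 420 cpm. EGR3 averaged 18.5 and 16.6 cpm there. None of the 3 was called in the deeper libraries (EGR1 0.23, FOSB -0.10), where the controls were already high. ARC, in contrast, was low in the deeper controls (0.298 to 0.612 cpm) and higher in deeper shD3#1 (4.79 to 11.5 cpm, log2 4.16). In the deeper libraries 10 of 27 members tested were higher, 7 of them among the 15. What set the deeper controls apart was not tested.

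CDKN1A, the cell cycle inhibitor p21, was at 47.4, 47.1 and 52.1 cpm in sh1Control and at 200, 188 and 230 cpm in shD3#1 (log2 2.07). MDM2, a ubiquitin ligase, was at 137, 138 and 141 cpm and then at 242, 226 and 249 cpm. For both genes the groups stood well apart. TNFRSF10C, a decoy death receptor of few reads, rose by 2.67 and the cytokine GDF15 by 0.77 on the log2 scale. CCNG1, a cyclin, fell from 65.2, 66.7 and 67.7 cpm to 34.4, 36.0 and 39.6 cpm. PLK2 (0.61), a stress-responsive kinase, was no longer called without shD3#1 replicate 3 (0.56).

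Genes of the BCL2 family and the caspases had 6 higher (19.4%) and 2 lower (6.45%) of 31 tested (33 listed, median 0.03). Over all genes the shares were 14.5% and 14.6%, and 23 members of the list were not called. The death-promoting PMAIP1, or NOXA, was at 8.93, 9.10 and 10.6 cpm and then at 27.5, 28.0 and 29.7 cpm. BBC3, or PUMA (1.38), and BMF (1.49), of the same class, also rose. HRK, again of that class, fell (-1.75). BCL2, which protects cells, fell from 8.56, 8.29 and 7.46 cpm to 2.95, 2.50 and 2.24 cpm, and the related MCL1 (0.03) was not called.

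Most genes of cell division fell, and none was called higher by edgeR or DESeq2. Of 69 mitosis genes, all tested, 65 were lower (median -1.11, 67 lower without shD3#1 replicate 3), and NUSAP1, RACGAP1, CEP55 and BUB3 were not called. Above 0 at an unadjusted p under 0.05 were 0 mitosis, 0 histone and 1 of the replication genes. MAD2L1, of the spindle checkpoint, was at 48.6, 51.6 and 48.5 cpm in sh1Control and at 10.0, 10.2 and 13.0 cpm in shD3#1 (log2 -2.19). KIF4A, a chromosome-bound motor, was at 98.0, 93.0 and 93.3 cpm and then at 24.9, 25.5 and 23.8 cpm (-1.93). TOP2A, which untangles DNA before division, was at 1097, 1102 and 1044 cpm and then at 377, 371 and 364 cpm (-1.54 ± 0.06, adjusted p = 5.61e-12). The groups were far apart in each of the 3 genes. MKI67, the proliferation antigen, fell by 1.27, the kinase CDK1 by 0.97 and its cyclin CCNB1 by 0.86 on the log2 scale.

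Promoters of mitosis genes often hold the letters TTTGAA, the cell cycle genes homology region, and CCAAT, on either strand. In the 250 bases before the RefSeq start, TTTGAA was found in 29 of 59 tested mitosis genes with a RefSeq promoter (49.2%) and in 8.62% of the 10489 protein-coding genes tested with one, and CCAAT in 41 of 59 (69.5%) against 3675 of 10489. The promoters of KIF4A (chrX:70289854-70290103, plus strand) and TOP2A (chr17:40417897-40418146, minus strand), from RefSeq on GRCh38.p14, are shown as examples of genes that fell, in the direction of transcription with both motifs on either strand in capitals.
KIF4A: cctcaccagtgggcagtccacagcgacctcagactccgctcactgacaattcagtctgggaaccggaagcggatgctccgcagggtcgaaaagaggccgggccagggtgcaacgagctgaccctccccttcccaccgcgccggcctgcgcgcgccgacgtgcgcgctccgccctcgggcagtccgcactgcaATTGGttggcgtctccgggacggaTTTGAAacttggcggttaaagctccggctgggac
TOP2A: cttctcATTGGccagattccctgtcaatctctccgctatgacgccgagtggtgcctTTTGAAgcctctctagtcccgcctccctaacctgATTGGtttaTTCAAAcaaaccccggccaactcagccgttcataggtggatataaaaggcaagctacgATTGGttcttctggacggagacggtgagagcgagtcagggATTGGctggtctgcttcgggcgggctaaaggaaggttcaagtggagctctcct
KIF4A held TTTGAA starting 34 bases before its start and a CCAAT on the opposite strand at 58. TOP2A held TTTGAA at 194 and, on the opposite strand, at 151, with 4 CCAAT boxes on the opposite strand, the nearest at 53.

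DNA replication genes had 30 lower and 0 higher of 53 (median -0.62). MCM4, of the replicative helicase, was at 307, 292 and 302 cpm in sh1Control and at 115, 120 and 127 cpm in shD3#1, and CLSPN, a checkpoint mediator, fell by 1.503. PCNA, the sliding clamp, differed by -0.44 and was not called. The E2F letters TTTCCCGC were found in 8 of 45 replication promoters (17.8%) and in 2.25% of all, and TTTGGCGC in 3 of 45 (6.67%) and 0.887%. Replication-dependent histone genes, whose mRNAs lack a poly(A) tail and are made in S phase, had 43 lower and 0 higher of 46 tested (59 listed, median -1.28), including H1-3 (-1.67), H3C12 (-1.63) and H1-4 (-1.08). Their near-identical copies make the value of any 1 histone gene uncertain.

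**Figure D3:**
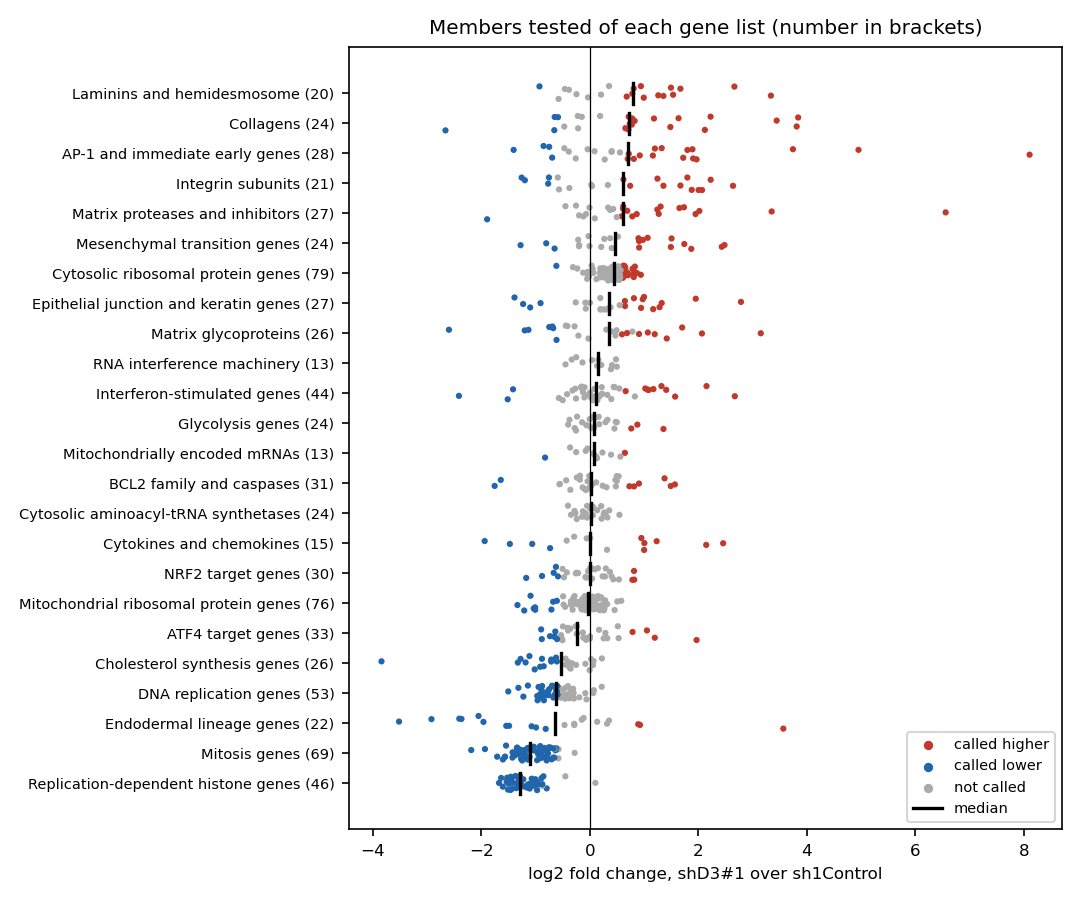
Log2 fold change of shD3#1 over sh1Control for each tested member of the gene lists described in the text, 1 row per list, with the median marked and called members coloured. The mitosis, replication and histone rows lie almost wholly below 0, with medians of -1.11, -0.62 and -1.28, while the synthetase row lies around 0.

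Secreted signals split by gene. Of 15 cytokines and chemokines tested (31 listed), 6 were higher and 4 lower (median 0.01). CXCL8, or interleukin 8, was at 8.25, 9.74 and 11.5 cpm in sh1Control and at 40.3, 41.4 and 50.3 cpm in shD3#1 (log2 2.15 ± 0.11, adjusted p = 2.78e-10), and TNFSF15, a ligand of the TNF family, at 16.6, 16.8 and 18.1 cpm and then at 89.5, 93.2 and 101 cpm. CXCL5, from the same chromosome 4 cluster and acting on the same receptor as CXCL8, fell from 239, 253 and 224 cpm to 71.0, 69.5 and 44.2 cpm. CXCL1, also of the cluster, fell from 27.0, 28.2 and 29.5 cpm to 9.71, 10.96 and 9.57 cpm. CXCL2 (-1.06) and CXCL3 (-0.73) fell too, though CXCL1, CXCL2 and CXCL3 are close in sequence and reads could be split among them.

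The 3 chemokines named with values have the NF-kappaB letters GGANTTTCC at like places, although they moved in opposite directions. These letters were found in 6 of 10 cytokine promoters (60.0%) and in 1.40% of all, and the other form, GGGANTTCC, in 0 of 10 and 2.14%. The bases before the RefSeq starts of CXCL8 (chr4:73740319-73740518, plus strand, ending where the annotated gene begins), CXCL1 (chr4:73869143-73869392, plus strand) and CXCL5 (chr4:73998678-73998927, minus strand) are shown with the match in capitals.
CXCL8: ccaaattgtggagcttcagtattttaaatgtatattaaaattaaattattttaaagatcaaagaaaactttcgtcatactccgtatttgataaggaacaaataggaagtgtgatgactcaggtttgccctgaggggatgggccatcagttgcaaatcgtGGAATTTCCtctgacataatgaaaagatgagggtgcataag
CXCL1: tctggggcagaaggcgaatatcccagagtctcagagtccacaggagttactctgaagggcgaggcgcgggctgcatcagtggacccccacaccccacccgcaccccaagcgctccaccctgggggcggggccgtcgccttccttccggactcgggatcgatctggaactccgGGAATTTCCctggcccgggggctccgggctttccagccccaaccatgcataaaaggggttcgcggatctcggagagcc
CXCL5: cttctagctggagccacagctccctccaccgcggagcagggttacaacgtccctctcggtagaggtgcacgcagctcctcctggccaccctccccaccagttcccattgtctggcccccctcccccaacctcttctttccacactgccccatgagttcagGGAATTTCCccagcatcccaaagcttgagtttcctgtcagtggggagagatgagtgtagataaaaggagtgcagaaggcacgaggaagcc
The match began 91, 78 and 90 bases before the 3 RefSeq starts, each time on the strand of the gene. Among matrix proteases, the AP-1 letters TGANTCA were found in 4 of 17 promoters (23.5%), against 3.91% of all, 7.66% of 1489 promoters of genes called higher and 3.79% of 1531 of genes called lower. MMP10 (chr11:102780629-102780878, minus strand), one of the proteases that rose, held it 67 bases before its start.
MMP10: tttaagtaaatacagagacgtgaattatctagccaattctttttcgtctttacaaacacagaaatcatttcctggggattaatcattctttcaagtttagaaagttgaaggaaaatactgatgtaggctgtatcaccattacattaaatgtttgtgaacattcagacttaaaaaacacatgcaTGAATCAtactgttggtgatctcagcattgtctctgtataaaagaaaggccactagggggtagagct

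Interferon-stimulated genes had 10 higher (22.7%) and 3 lower (6.82%) of 44 tested (50 listed, median 0.12), against 14.5% and 14.6% of all genes. No call was made for 31 of them. BST2, or tetherin, was at 0.156, 0.174 and 0.252 cpm and then at 1.21, 1.33 and 1.32 cpm. MX1, an antiviral GTPase, was at 1.40, 1.39 and 1.66 cpm in sh1Control and at 4.22, 4.63 and 12.7 cpm in shD3#1, ISG15 reached 4.35, 4.58 and 11.6 cpm and IFI6 6.83, 11.3 and 14.9 cpm. In MX1, ISG15 and IFI6 the highest library was shD3#1 replicate 3. GBP1 (-2.41) and HERC5 (-1.51) fell. The interferon-stimulated response element, read as TTTC, then 2 free bases, then TTTC on either strand, was found in 18 of 36 of these promoters and in 2.33% of all.

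Cholesterol synthesis and uptake genes had 13 lower and 0 higher of 26, all tested (median -0.53, 12 lower without shD3#1 replicate 3). None was called higher by DESeq2 either, and 1 was above 0 at an unadjusted p under 0.05. SREBF2, the transcription factor of the pathway, was at 114, 116 and 120 cpm in sh1Control and at 58.6, 54.3 and 48.6 cpm in shD3#1. SQLE (-1.02), an epoxidase of the pathway, and INSIG1 (-1.18), its feedback regulator, fell as well. HMGCS1 (-0.08), an early enzyme of the pathway, was not called. SCD, which desaturates fatty acids, was at 1936, 2012 and 1849 cpm and then at 721, 718 and 656 cpm. The sterol response letters TCACNCCAC were found in 1 of 19 promoters of the list (5.26%) and in 0.849% of all.

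Stress and metabolic lists are read against the 14.5% higher and 14.6% lower of all genes. ATF4 targets, read out when translation is impaired, had 4 higher (12.1%) and 7 lower (21.2%) of 33 tested (35 listed, median -0.24), with CHAC1 higher (1.20), VLDLR lower (-0.89) and ATF4 itself not called (-0.12). CBS (-0.90) was no longer called when any library other than shD3#1 replicate 3 was left out. NRF2 targets, which A549 cells express strongly, had 3 higher and 5 lower (16.7%) of 30, among them ALDH3A1 (0.82), GPX2 (0.82) and ABCC3 (-0.88). Glycolysis genes had 3 higher of 24 (12.5%), including the glucose transporter SLC2A3 (1.36) and HK1 (0.88).

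Genes of tRNA charging had no calls, and the number of ribosomal protein genes called moved with single libraries. None of 24 cytosolic aminoacyl-tRNA synthetases and none of 13 genes of the RNA interference machinery was called in either direction by edgeR or DESeq2. At an unadjusted p under 0.05, 7 synthetases were above 0 and 5 below it, and 7 and 3 of the RNA interference genes. Of 79 cytosolic ribosomal protein genes, 24 were higher and 1 lower (median 0.45), 71 were above 0, and 58 did not overlap on the higher side, as did 30.8% of all genes. Leaving out shD3#1 replicate 3 left 9 of the 79 called higher, and leaving out sh1Control replicate 2 left 12, with RPL39, for example, at 0.57 and 0.78 against 0.87. RPS18 was at 146, 123 and 146 cpm and then at 253, 224 and 323 cpm, while RPL24 was at 172, 145 and 169 cpm and then at 102, 94.5 and 122 cpm, and the processed pseudogenes of this family leave each value uncertain. The summed level was 13915 to 15749 cpm in sh1Control and 18388 to 23148 cpm in shD3#1, highest in replicate 3. In the deeper libraries, where 77 of the 79 were tested, 22 were lower (median -0.33). There 6 genes, RPL39 among them (0.87 and -0.91), were called in opposite directions. RPS18 was at 0 cpm in all the deeper libraries, so the 2 tables did not count it alike. The part of such counting in the opposite calls was not tested. Mitochondrial ribosomal protein genes had 9 lower of 76 tested, with MRPL18 (-1.33) and MRPS27 (-1.21) the furthest, and mitochondrially encoded mRNAs had 1 higher (MT-ATP8, which overlaps MT-ATP6 and was not called without shD3#1 replicate 3) and 1 lower of 13.

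Genes of endodermal lineages had 3 higher and 11 lower of 22 tested (31 listed, median -0.64). The 3 fibrinogen chains, neighbours on chromosome 4 that build the clotting protein of liver, fell together. FGA was at 153, 147 and 152 cpm in sh1Control and at 29.1, 29.9 and 28.4 cpm in shD3#1, FGB at 143, 131 and 141 cpm and then at 13.0, 11.9 and 11.2 cpm, and FGG at 60.1, 52.5 and 59.1 cpm and then at 8.44, 7.98 and 5.70 cpm. The gap was widest for FGB (11.5-fold, log2 -3.52 ± 0.08). MUC5AC, an airway and stomach mucin, fell (-1.961), and the lineage factors FOXA1 (0.93) and GATA6 (0.89) rose. In the deeper libraries FGB was at 3.27 to 6.08 cpm in sh1Control and at 2.01 to 5.09 cpm in shD3#1, with no call (-0.25). FGG (0.50) was not called there either. Of 20 members of the list tested there, 6 were higher and 1 lower.

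The deeper libraries share no library with the first. In them 2813 of 18763 genes were called higher and 2648 lower (29.1% together), and the calls of the lists recurred as follows. In the deeper libraries 23 of 68 mitosis genes tested were lower, 22 of them among the 65, and 11 of 53 replication genes were lower. Of 51 histone genes 44 were lower, 40 of them among the 43. Of 25 collagens 13 were higher, 12 of them among the 15. Matrix proteases had 6 of their 15 higher calls again and 1 call in the opposite direction, with 25 tested. Cholesterol genes had 3 of their 13 lower calls again, with 26 tested. For single genes, CPA4 (3.47), ANXA10 (3.30), LAMB3 (3.19), CEACAM6 (3.37), TM4SF20 (-3.19), C3 (-3.66) and CANX (-2.001) were called in the same direction, CANX averaging 1837 and 459 cpm. CDK1 (-0.08), PLAU (0.15), SQLE (-0.49) and MUC5AC (0.31) were not called there. The difference between the first and the deeper libraries was not tested, since the tables were normalised separately.

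**Figure D4:**
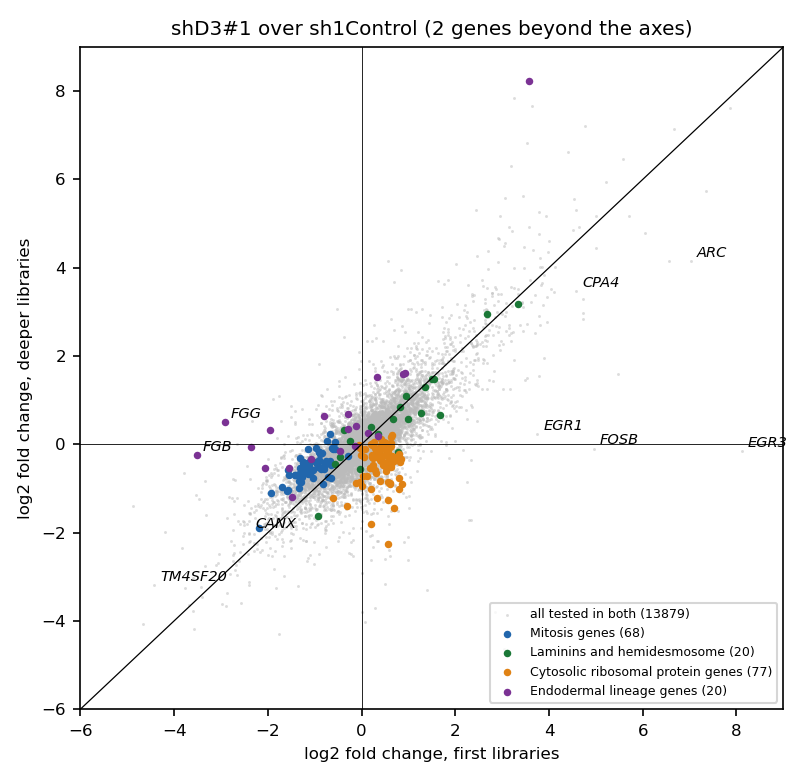
Log2 fold change of shD3#1 over sh1Control in the first libraries (horizontal axis) and in the deeper libraries (vertical axis) for 13879 genes tested in both, with members of selected lists coloured and 2 genes beyond the axes left out. Of 4104 genes called in the first libraries, 3904 have the same sign on both axes, whereas EGR1, FOSB and FGB lie near 0 on the vertical axis only.

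The change with shD3#1 differed from that with shD3#4 for 4841 of 18672 genes (25.9%) and from that with siTHUMPD3 for 4734 (25.4%), by the interaction test in 1 edgeR fit of 17 libraries. THUMPD3 fell less with shD3#1 than with either (by 0.70 and 1.56 on the log2 scale), so the groups were not matched for depletion, and the siRNA cells were harvested at another time with 2 control libraries. CANX stood out, since it was not called with shD3#4 (-0.20) or siTHUMPD3 (-0.31), and the differences were -2.21 and -2.11. TM4SF20 (-6.06 and -5.05), FGB (-5.57 and -3.45), CDH1 (-1.69 and -1.92) and ANXA10 (4.28 and 3.85) also differed from both. The siRNA libraries spread widely for 2 of these genes. FGB was at 17.3 to 68.2 cpm in siControl and 4.68 to 59.7 cpm in siTHUMPD3. TM4SF20 was at 20.9 to 48.3 cpm and 10.7 to 80.3 cpm. CPA4 rose with siTHUMPD3 (3.03) and was not called with shD3#4 (-0.27).

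CDKN1A averaged 59.7 cpm with shD3#4 and 764 cpm with siTHUMPD3, and its change with shD3#1 differed from both (1.87 and -1.46). Over all 18672 genes, the change with shD3#1 was above that with shD3#4 for 2260 and below it for 2581. Against siTHUMPD3 the numbers were 2192 and 2542. Among genes also tested with shD3#1, 1912 of 15924 were called in either direction with shD3#4 and 3354 of 15973 with siTHUMPD3. By list, 24 of 69 mitosis genes were lower with shD3#4 and 68 with siTHUMPD3. So shD3#1 lay between them, below shD3#4 for 34 mitosis genes and above siTHUMPD3 for 65. Cholesterol genes were lower with shD3#1 than with shD3#4 for 13 of 26 and than with siTHUMPD3 for 12. Ribosomal protein genes were above both, for 59 and 46 of 79, with the dependence on replicate 3 given above. SNAI2 rose with shD3#1 and siTHUMPD3 (2.26) and fell with shD3#4 (-1.47), and CXCL8 (2.02 and -1.40) did likewise. The fall of SNAI2 rests on few reads, with means of 0.854 cpm in sh4Control and 0.308 cpm in shD3#4.

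**Figure D5:**
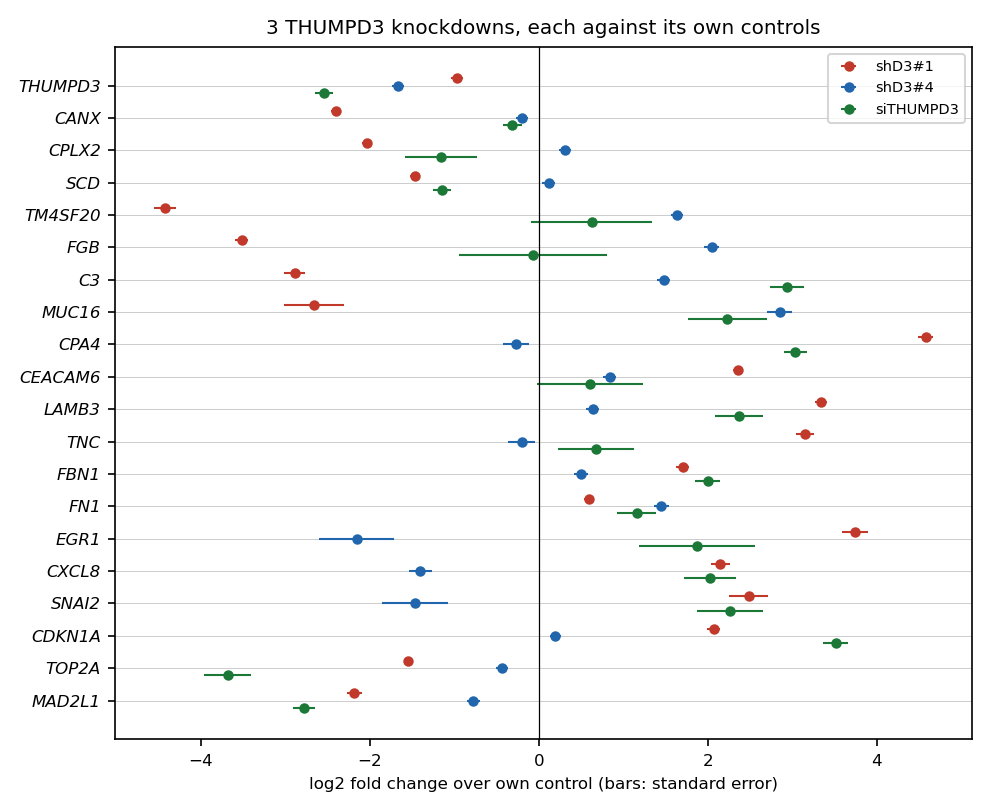
Log2 fold change of named genes with shD3#1, shD3#4 and siTHUMPD3, each against its own control, with standard errors as bars. CANX and TM4SF20 lie far below 0 with shD3#1 alone, and SNAI2 and CXCL8 lie above 0 with shD3#1 and siTHUMPD3 and below it with shD3#4. EGR1 and SNAI2 had few reads in sh4Control and shD3#4.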

How the data were processed

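Gene counts were taken as the authors deposited them, as whole-number counts per gene and library, with the deeper libraries in a separate table of gene symbols. Per the study's methods and the submitters' processing notes, reads were trimmed with Trimmomatic 0.40 and aligned and counted with STAR 2.7.10a on GRCh38. The strand column and the annotation release behind the Ensembl identifiers are not given in the sources used here. Of 61806 identifiers in the first table, 61757 matched GENCODE v44, and 0 columns lacked a sample. Of 42901 gene symbols in the deeper table, 27502 matched, with 83.1% of its counts. Depth was 9854294 to 20234810 counts per library in the first table and 27285889 to 59974740 in the deeper one.

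From these counts, filterByExpr, TMM scaling and the quasi-likelihood test of edgeR 4.0.16 (R 4.3.3) were applied to the 6 libraries, with Benjamini-Hochberg adjustment over all 16456 genes. A gene was called at an adjusted p below 0.05 and a change of 1.5-fold or more. Comparisons with shD3#4 and siTHUMPD3 used interaction contrasts in 1 fit of 17 libraries. The deeper libraries were fitted alone. Alternatives were DESeq2 1.42.0, other scalings and filters, a replicate block, other thresholds, and leaving out each library. The fits were tested on simulated counts.

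Named genes were THUMPD3, its antisense transcript and partners, the 12 protein-coding genes with the largest rise and fall at 5 cpm or more without overlap, the 5 with the largest gap in cpm in each direction, up to 2 called members in each direction and the most abundant member of each of 29 gene lists, the 5 in each direction that differed most from shD3#4, and FN1, FBN1, TNC and LAMB3, which the study followed by qPCR. Other list members in the text were picked once their values were known. The comparison, the genes and the lists were chosen with earlier results of these data known. Promoters are the 250 bases before RefSeq starts, trimmed to bases outside the annotated gene, with those on chromosome 8 left out. Several genes that these rules name, and 1 of the lists, are not reported here.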

Additional observations from a re-analysis of the deposited data

Results flagged for a closer look

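Changes with shD3#1 that differed from those with another knockdown by the edgeR interaction test numbered 4841 genes for shD3#4 (25.9% of 18672) and 4734 for siTHUMPD3 (25.4%). Of 4479 genes called with shD3#1 and tested with shD3#4, 555 (12.4%) were called in the same direction with shD3#4 and 420 in the opposite one. With siTHUMPD3 the numbers were 1461 (31.8%) and 170 of 4592. Over all genes tested in both, 1912 of 15924 were called with shD3#4 and 3354 of 15973 with siTHUMPD3. The named genes were picked for large changes with shD3#1 and in part for differing from shD3#4, so their counts describe only the genes named. Of 137, 98 differed from shD3#4, and 21 of these were called in opposite directions by the 2 hairpins. Among those that fell with shD3#1 and rose with shD3#4, the difference in log2 fold change (shD3#1 minus shD3#4) was -6.50 for MAPK4, -6.22 for ADH6, -6.06 for TM4SF20, -5.57 for FGB and -5.51 for MUC16. It was -5.44 for SLC23A1, -5.28 for FGG, -5.14 for USH1C, -4.95 for NPTX1, -4.38 for C3 and -4.15 for SLC4A8. Smaller differences in the same direction were -3.64 for MMP28, -3.35 for COL5A3, -3.34 for DEGS2, -3.31 for FBLN5 and -1.68 for NR4A3. MAPK4, a protein kinase gene of few reads, had 44 counts in sh1Control and 3 in shD3#1, a ratio of 0.0882 (95% interval 0.0175 to 0.275). In the deeper libraries MAPK4 averaged 0.0489 cpm in sh1Control and 0.0399 cpm in shD3#1, and ADH6 0.264 and 0.164 cpm. Genes that rose with shD3#1 and fell with shD3#4 were EGR1 (5.89), SNAI2 (3.94), CXCL8 (3.55), CHAC1 (2.30) and RPS18 (1.55). EGR1 averaged only 0.886 cpm in sh4Control and 0.197 cpm in shD3#4, and SNAI2 0.854 and 0.308 cpm.

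Against siTHUMPD3, 75 of the 137 named genes differed and 9 had opposite calls, all falls with shD3#1 and rises with the siRNA. The differences were -5.85 for C3, -5.39 for COL5A3, -4.89 for MUC16, -3.45 for MMP28, -3.40 for GBP1, -3.20 for HRK, -2.33 for CXCL1, -2.31 for NR4A3 and -1.54 for COL27A1. In the first libraries C3, COL5A3, MUC16, MMP28 and NR4A3 therefore fell with shD3#1, and they rose with both other agents. In the deeper libraries C3 averaged 143 cpm in sh1Control and 11.3 cpm in shD3#1. MUC16 averaged 13.2 and 13.1 cpm there, MMP28 0.0895 and 0.134, COL5A3 0.224 and 0.194, and NR4A3 65.7 and 53.7 with overlapping ranges. The part of the unequal loss of THUMPD3 in the differences between agents was not tested.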

How the results depend on the processing

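Under 16 alternatives the number of genes called higher in shD3#1 moved by more than 1.5 times in 2. Testing against the fold change limit itself (glmTreat) gave 1423 higher and 1328 lower, and a log2 limit of 1 gave 1194 and 1086 and left out THUMPD3 (-0.97). DESeq2 gave 2249 and 2161, and leaving out each library in turn gave 2345 to 2440 higher and 2269 to 2472 lower, with THUMPD3 at -0.999 to -0.943. With no scaling beyond library size, which moved the median of all genes by 0.0687 on the log2 scale, 57.7% of calls were higher against 49.9%, and TRMT11 changed sign (0.0253). RPL4 ranged from -0.0302 to 0.133 and GAPDH from -0.0297 to 0.146 over the fits without 1 library, each below 0 without shD3#1 replicate 3, and the cause was not tested. Replicate numbers are shared between the groups, but same-numbered libraries did not deviate together (correlations -0.01, 0.07 and 0.01). The replicate block gave 2383 higher and 2389 lower, and of the named genes it changed the call of CBS only. The numbers of genes in the deeper libraries and of genes that differed from shD3#4 or siTHUMPD3 stayed within 1.5 times under each alternative run. Ribosomal protein genes called higher ranged from 0 to 34 over the alternatives. Depth limits the genes of few reads, such as MMP1, EGR3 and ACTBL2.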
